A study of Mus musculus with 24 samples.

Results

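The genes described here are 39 genes of cholesterol and fatty acid synthesis and of their control, out of 25239 genes in the expression table. They were chosen by name for their known roles, by a rule that uses no measured value but with earlier results of these data known, and all 39 passed the filter on low values that left 14104 genes for testing. They fall into 7 enzymes of the mevalonate pathway, 11 enzymes that lead from farnesyl diphosphate to cholesterol, 5 regulators and carriers, 12 genes of fatty acid and lipid synthesis, and 4 genes of cholesterol efflux and of the liver X receptor (LXR) response.

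RNA was sequenced from 6 cell lines grown out of small cell lung tumors of mice, a lung cancer in which both Rb and p53 are lost. All lines carry floxed Rb1 and Rbl2 (p130) genes that were deleted by an adenovirus expressing Cre, a Trp53 XTR allele in which a gene trap keeps p53 off, and a tamoxifen-inducible Flp recombinase (FlpO-ERT2) at Rosa26 that removes the trap. Both Control and Restored cells thus lack Rb1 and Rbl2, and they differ in p53 and in the agent given, vehicle or 4-hydroxytamoxifen (4-OHT). The labels sort the lines into 3 Type D lines, which die after p53 restoration, and 3 Type V lines, which stay viable and arrest. Each line gave 4 libraries at 72 h: Control, Restored, Control + CsA and Restored + CsA. CsA is cyclosporin A, a drug that binds cyclophilins. The 24 libraries therefore form 8 groups of 3 lines, and lines are numbered 1 to 3 within each type, so that a value for "line 2" always comes from the same cells. The p-values measure the spread between lines within a group, pooled over all 8 groups.

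Cholesterol is built from acetyl-CoA through mevalonate and the isoprenoids to squalene, which is closed into a ring and then trimmed and reduced to cholesterol. Fatty acids are built from the same acetyl-CoA, lengthened and desaturated. Most of these enzymes share a switch: the SREBP transcription factors, made from Srebf1 and Srebf2, are held in the endoplasmic reticulum by Scap and Insig1 when sterols are plentiful, and are released to activate the genes when sterols run low. LXR works in the opposite situation and turns on the exporters Abca1 and Abcg1. Dividing cells need both lipids for new membrane.

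The promoters of 4 genes are shown because these genes stand for the main patterns below: Hmgcs1 for the mevalonate pathway, Cyp51 for the sterol steps, Insig1 for the feedback arm, and Lpin1 as the synthesis gene that moved the other way. The RefSeq windows (build GRCm38.p6) reach from 250 bases before to 50 bases after the annotated start and are written 5′ to 3′ on the gene's strand. Capitals mark every match, on either strand, to the core of the sterol regulatory element TCACNCCAC, to the NF-Y box CCAAT, or to the palindromic E-box CACGTG. The windows lie at chr13:119690101-119690400 on the plus strand, chr5:4104648-4104947 on the minus strand, chr5:28071162-28071461 on the plus strand and chr12:16610917-16611216 on the minus strand.
Hmgcs1: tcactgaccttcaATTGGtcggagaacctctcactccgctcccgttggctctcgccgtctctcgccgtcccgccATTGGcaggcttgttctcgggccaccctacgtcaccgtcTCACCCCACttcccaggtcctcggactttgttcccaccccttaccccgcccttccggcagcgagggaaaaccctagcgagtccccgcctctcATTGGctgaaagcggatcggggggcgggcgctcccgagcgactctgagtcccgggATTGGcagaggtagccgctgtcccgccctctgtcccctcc
Cyp51: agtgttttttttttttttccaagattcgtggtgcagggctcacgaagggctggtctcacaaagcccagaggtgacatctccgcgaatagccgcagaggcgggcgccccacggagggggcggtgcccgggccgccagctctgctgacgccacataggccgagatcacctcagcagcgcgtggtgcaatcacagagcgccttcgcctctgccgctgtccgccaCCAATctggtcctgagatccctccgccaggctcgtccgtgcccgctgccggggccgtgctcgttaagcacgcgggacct
Insig1: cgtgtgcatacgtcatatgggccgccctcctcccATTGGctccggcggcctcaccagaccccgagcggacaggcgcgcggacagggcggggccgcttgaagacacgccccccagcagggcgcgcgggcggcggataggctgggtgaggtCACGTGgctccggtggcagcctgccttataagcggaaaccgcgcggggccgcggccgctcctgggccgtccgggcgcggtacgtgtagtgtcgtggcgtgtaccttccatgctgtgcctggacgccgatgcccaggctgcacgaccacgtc
Lpin1: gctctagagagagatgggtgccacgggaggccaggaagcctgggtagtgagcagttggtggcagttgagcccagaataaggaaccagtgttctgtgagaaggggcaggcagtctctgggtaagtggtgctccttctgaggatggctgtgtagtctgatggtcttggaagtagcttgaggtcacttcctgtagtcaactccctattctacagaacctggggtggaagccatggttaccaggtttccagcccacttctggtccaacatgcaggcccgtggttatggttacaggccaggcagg
In Hmgcs1 the sterol element core began 137 bases before the start, and 4 NF-Y boxes were found. Cyp51 held 1 NF-Y box, 29 bases before its start. Insig1 held 1 NF-Y box and 1 E-box, and Lpin1 held no match to the 3 motifs. RefSeq windows were matched for 31 of the 39 genes. Among these, the NF-Y box was present in 22 (71.0%), against 41.1% of the 27025 genes in the promoter table, and in 14 of the 15 mevalonate and sterol enzymes that had a window. The sterol element core was present in 1 of 31, against 1.44% of all genes, and the E-box in 6 of 31 (19.4%), against 8.09%. Such matches describe letters in a short window and no site of binding.

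The TPM table holds no read counts, so depth is unknown. Between 11853 and 12651 genes per library reached a TPM of 1. Trp53 lay at 10.5 to 15.3 TPM in the 12 libraries without restoration and at 181 to 253 TPM in the 12 with it, and its target Cdkn1a rose from between 37.5 and 145 to between 1068 and 2540 TPM. Among neuroendocrine markers, Chga was listed at 0 in all 24 libraries, and Neurod1 and Calca stayed under a TPM of 1 throughout, so these markers of the labelled cancer were absent or near 0. Ncam1 was present in all 24 libraries (4.46 to 27.3 TPM).

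Synthesis genes were well expressed in untreated cells. Over the 6 Control libraries the desaturase Scd2 was the most abundant (1396 ± 594 TPM, SD, n = 6), followed by Scd1 (317 ± 319 TPM), Srebf2 (295 ± 95.5 TPM) and Fdps (277 ± 195 TPM). The range of Scd2, 790 to 2317 TPM, overlapped that of Scd1, 113 to 947 TPM, and the ranges of all other neighbors in the order of means overlapped as well. At the lower end were Idi1 (18.0 ± 8.99 TPM), Lpin1 (8.83 ± 5.96 TPM) and Acss2 (7.87 ± 2.74 TPM). Abca1, Mylip and Abcg1 had the lowest means, of 3.97, 1.32 and 0.841 TPM. Together the 39 genes took 0.430, 0.975 and 0.475% of all TPM in Type D Control lines 1, 2 and 3, and 0.394, 0.613 and 0.444% in Type V Control lines 1, 2 and 3.

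Many synthesis genes were lower after p53 restoration in both types. In Type D, 16 of the 39 genes fell and 1 rose, counting genes that moved by 1 or more on the log2(TPM + 1) scale with an adjusted p from limma below 0.05. Over all 14104 genes, 2.44% were called lower and 4.49% higher. In Type V, 11 genes fell and 1 rose, against 1.90% of all genes called lower and 3.39% called higher. The median change of the 39 genes was -1.01 in Type D and -0.95 in Type V, and the median over all genes tested was 0.07 and 0.05. Restored and Control values did not overlap, with Restored lower, for 27 of the 39 in Type D and for 23 in Type V. Such separation was seen in 13.1% of all genes tested in Type D and in 10.3% in Type V. In bulk RNA, a loss of cells of one kind and less RNA per cell cannot be told apart.

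All 7 mevalonate enzymes and all 11 sterol enzymes had a negative change in both types. Of these 18, 11 fell in Type D (median -1.36) and 7 in Type V (median -1.14). Both types shared much of the fall: 9 genes were called lower in both, namely Hmgcs1, Mvd, Idi1, Fdps, Cyp51, Dhcr7, Insig1, Elovl6 and Scd2, which is 56.2% of the Type D calls and 81.8% of the Type V calls. The Type D and Type V changes come from separate lines, but both sets of calls share 1 estimate of the spread over all 24 libraries.

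**Figure D1:**
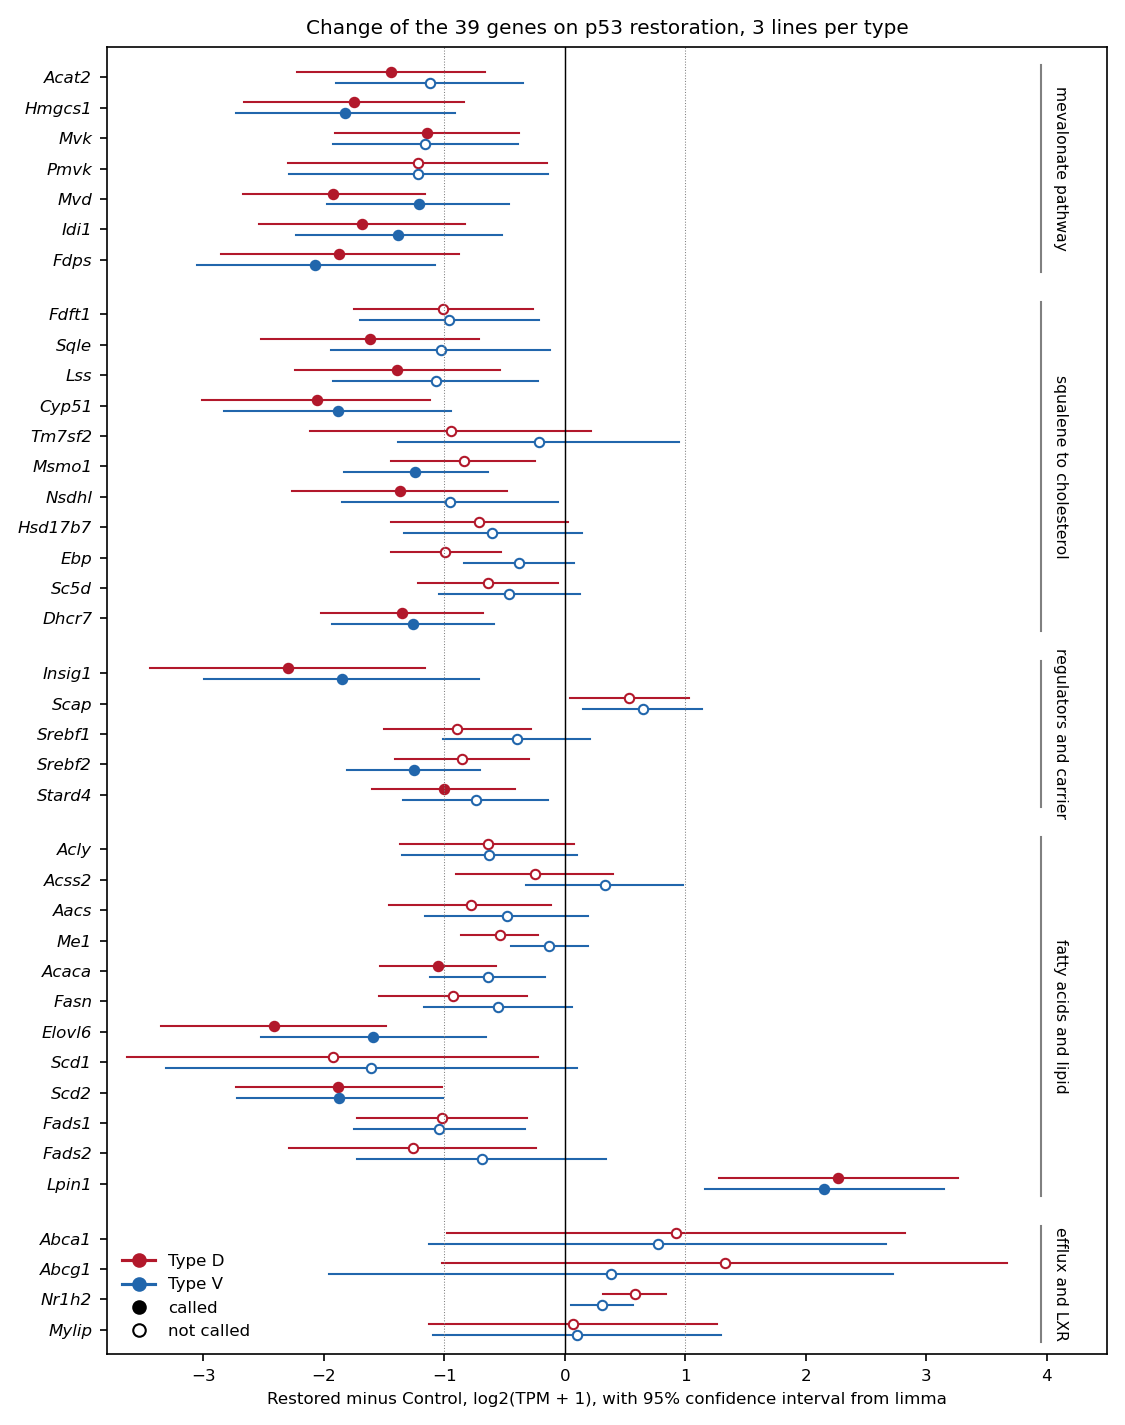
Change of each of the 39 genes on p53 restoration (x axis, Restored minus Control on the log2(TPM + 1) scale) in Type D (red) and Type V (blue), grouped by role; points are limma estimates from 3 lines per type, bars are 95% confidence intervals, filled points are called and dotted lines mark a change of 1. All 18 mevalonate and sterol enzymes lie left of 0 in both types, and Lpin1 lies at 2.27 and 2.15.

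Of the 7 mevalonate enzymes, 6 fell in Type D and 4 in Type V, and the seventh, Pmvk, became a call in both with cell line as a block, a fit that compares each line with its own control. Hmgcs1, which makes HMG-CoA from acetoacetyl-CoA, stood in Type D lines 1 to 3 at 109, 318 and 117 TPM in Control and 59.3, 42.9 and 40.4 TPM in Restored. The Type V lines had 72.2, 143 and 87.2 TPM in Control and 26.8, 32.4 and 21.8 TPM in Restored. All 6 restored libraries lay below all 6 controls, and the change was -1.75 ± 0.43 (SE, adjusted p = 0.0110) in Type D and -1.82 ± 0.43 (SE, adjusted p = 0.0100) in Type V. Fdps, which makes farnesyl diphosphate, had 203, 662 and 227 TPM in Control and 106, 83.3 and 69.9 TPM in Restored in the Type D lines. Its Type V values were 130, 268 and 169 TPM in Control and 51.4, 39.9 and 37.0 TPM in Restored. The groups were again apart in both types, with changes of -1.87 ± 0.47 (SE, adjusted p = 0.0118) and -2.07 ± 0.47 (SE, adjusted p = 0.00703). Mvd, which decarboxylates diphosphomevalonate, had 68.4, 137 and 68.1 TPM in Control and 30, 16 and 22.2 TPM in Restored in Type D. Type V values were 47.7, 56.0 and 37.8 TPM in Control and 26.2, 17.2 and 16.5 TPM in Restored. It fell by 1.92 in Type D and by 1.21 in Type V (adjusted p = 0.00125 and 0.0372).

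Idi1, the isomerase that makes the reactive isoprene unit, was the least abundant enzyme of the pathway. Its Type D values were 18.1, 35 and 16.2 TPM in Control and 10.7, 4.90 and 4.20 TPM in Restored, and its Type V values 10.1, 17.3 and 11.1 TPM in Control and 5.62, 3.08 and 4.18 TPM in Restored. No restored library reached the level of a control of its type, and the changes were -1.68 ± 0.41 (SE, adjusted p = 0.00920) and -1.38 ± 0.41 (SE, adjusted p = 0.0362). Acat2, which joins acetyl-CoA units in the cytosol, had 53.3, 162 and 72.8 TPM in Control and 29.7, 27.1 and 37.2 TPM in Restored in Type D. It had 59.4, 79.8 and 72.5 TPM in Control and 32.0, 24.5 and 40.2 TPM in Restored in Type V. The 3 restored Type D lines were close together although line 2 had started far above the others, and the change was -1.44 ± 0.37 (SE, adjusted p = 0.0139). In Type V the change was -1.12 ± 0.37 (SE, adjusted p = 0.0628), which became a call with the block (adjusted p = 0.00625). Mvk, mevalonate kinase, had 44.7, 89.2 and 46.7 TPM in Control and 24.3, 22.5 and 29.6 TPM in Restored in Type D and a change of -1.14 ± 0.36 (SE, adjusted p = 0.0447). Its levels in Type V were 55.1, 55.5 and 69.3 TPM in Control and 36.6, 14.4 and 33.5 TPM in Restored, with a change of -1.16 ± 0.36 (SE, adjusted p = 0.0504), called with the block (adjusted p = 0.00494). Pmvk, the next kinase, was not called in either type without the block (-1.22 ± 0.51 and -1.22 ± 0.51) and was called lower in both with it (adjusted p = 0.000891 and 0.00108).

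Among the sterol enzymes the fall was deepest for Cyp51, the lanosterol demethylase. Its values were 64.2, 191 and 82.9 TPM in Control and 33.0, 16.2 and 23.7 TPM in Restored in the Type D lines. The Type V libraries showed 67.5, 133 and 112 TPM in Control and 23.4, 23.2 and 34.3 TPM in Restored. In line 2 of Type D it went from the highest Control value to the lowest Restored value, and the changes were -2.06 ± 0.45 (SE, adjusted p = 0.00440) and -1.88 ± 0.45 (SE, adjusted p = 0.0101). Dhcr7, which carries out the last reduction to cholesterol, had 34.6, 87.8 and 44.3 TPM in Control and 16.3, 20.5 and 22.3 TPM in Restored in Type D. Its Type V values were 32.9, 43.2 and 35 TPM in Control and 16, 14.2 and 14.1 TPM in Restored. The restored Type V lines differed by little, and the changes were -1.35 ± 0.32 (SE, adjusted p = 0.00758) and -1.26 ± 0.32 (SE, adjusted p = 0.0142).

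Sqle, squalene epoxidase and a rate-limiting step, had 200, 336 and 181 TPM in Control and 99.9, 61.0 and 67.2 TPM in Restored in Type D and fell by 1.62 (adjusted p = 0.0173). The Type V lines had 108, 241 and 115 TPM in Control and 94.0, 93.5 and 38.8 TPM in Restored. Line 1 of Type V thus kept most of its Sqle, and the change of -1.03 ± 0.43 (SE, adjusted p = 0.157) was called only with the block (adjusted p = 0.0130). Lss, which closes the sterol ring, had 24.6, 74.0 and 23.6 TPM in Control and 10.7, 13.2 and 14.9 TPM in Restored in Type D, where it fell by 1.39 (adjusted p = 0.0292). Its Type V values were 31.1, 46.4 and 24.6 TPM in Control and 16.2, 16.6 and 12.9 TPM in Restored, with a change of -1.07 ± 0.41 (SE, adjusted p = 0.111) that the block turned into a call (adjusted p = 0.00942). Nsdhl, which acts in the removal of the sterol C4 methyl groups, had 48.6, 133 and 52.5 TPM in Control and 28.0, 25.9 and 25.3 TPM in Restored in Type D, and 32.9, 68.2 and 59.2 TPM in Control and 21.6, 23.6 and 34.0 TPM in Restored in Type V. Nsdhl fell by 1.37 in Type D (adjusted p = 0.0397), and the Type V change of -0.95 ± 0.43 (SE, adjusted p = 0.188) missed the threshold.

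Msmo1, the sterol methyl oxidase that acts just before Nsdhl, was called in Type V and not in Type D. Its Type D values were 305, 384 and 249 TPM in Control and 301, 140 and 119 TPM in Restored. Type V values were 169, 219 and 171 TPM in Control and 84.4, 74.2 and 75.9 TPM in Restored. Line 1 of Type D barely moved while the other 5 lines fell, and the changes were -0.84 ± 0.28 (SE, adjusted p = 0.0590) and -1.24 ± 0.28 (SE, adjusted p = 0.00774). The difference between these changes was 0.39 (95% confidence interval -0.45 to 1.24) and was not called.

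The remaining sterol enzymes moved less. Ebp, the sterol isomerase, changed by -0.99 ± 0.22 (SE, adjusted p = 0.00482) in Type D, short of the fold threshold, and by -0.38 ± 0.22 (SE, adjusted p = 0.338) in Type V. Fdft1, which commits farnesyl diphosphate to squalene, changed by -1.01 ± 0.36 (SE, adjusted p = 0.0724) and -0.96 ± 0.36 (SE, adjusted p = 0.103), and was called in Type D with the block (adjusted p = 0.00968). Hsd17b7, the ketoreductase, changed by -0.71 ± 0.35 and -0.60 ± 0.35, without a call. Sc5d, the desaturase before Dhcr7, showed the smallest Type D change of the 11 sterol enzymes. It stood at 89.0, 148 and 71.4 TPM in Control and 79.6, 64.4 and 47.8 TPM in Restored in Type D, and 87.9, 90.8 and 71.1 TPM in Control and 65.1, 54.8 and 60.6 TPM in Restored in Type V, with changes of -0.64 ± 0.28 (SE, adjusted p = 0.154) and -0.46 ± 0.28 (SE, adjusted p = 0.375). Tm7sf2, a sterol reductase that shares its step with Lbr, had 32.7, 40.0 and 27.2 TPM in Control and 28.9, 7.26 and 21.2 TPM in Restored in Type D. Its levels in Type V were 8.33, 31.3 and 7.20 TPM in Control and 11.8, 13.6 and 7.48 TPM in Restored. It dropped in line 2 of each type and moved by 0.46 or less, up or down, in the others, and neither change was called (-0.94 ± 0.56 and -0.21 ± 0.56).

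**Figure D2:**
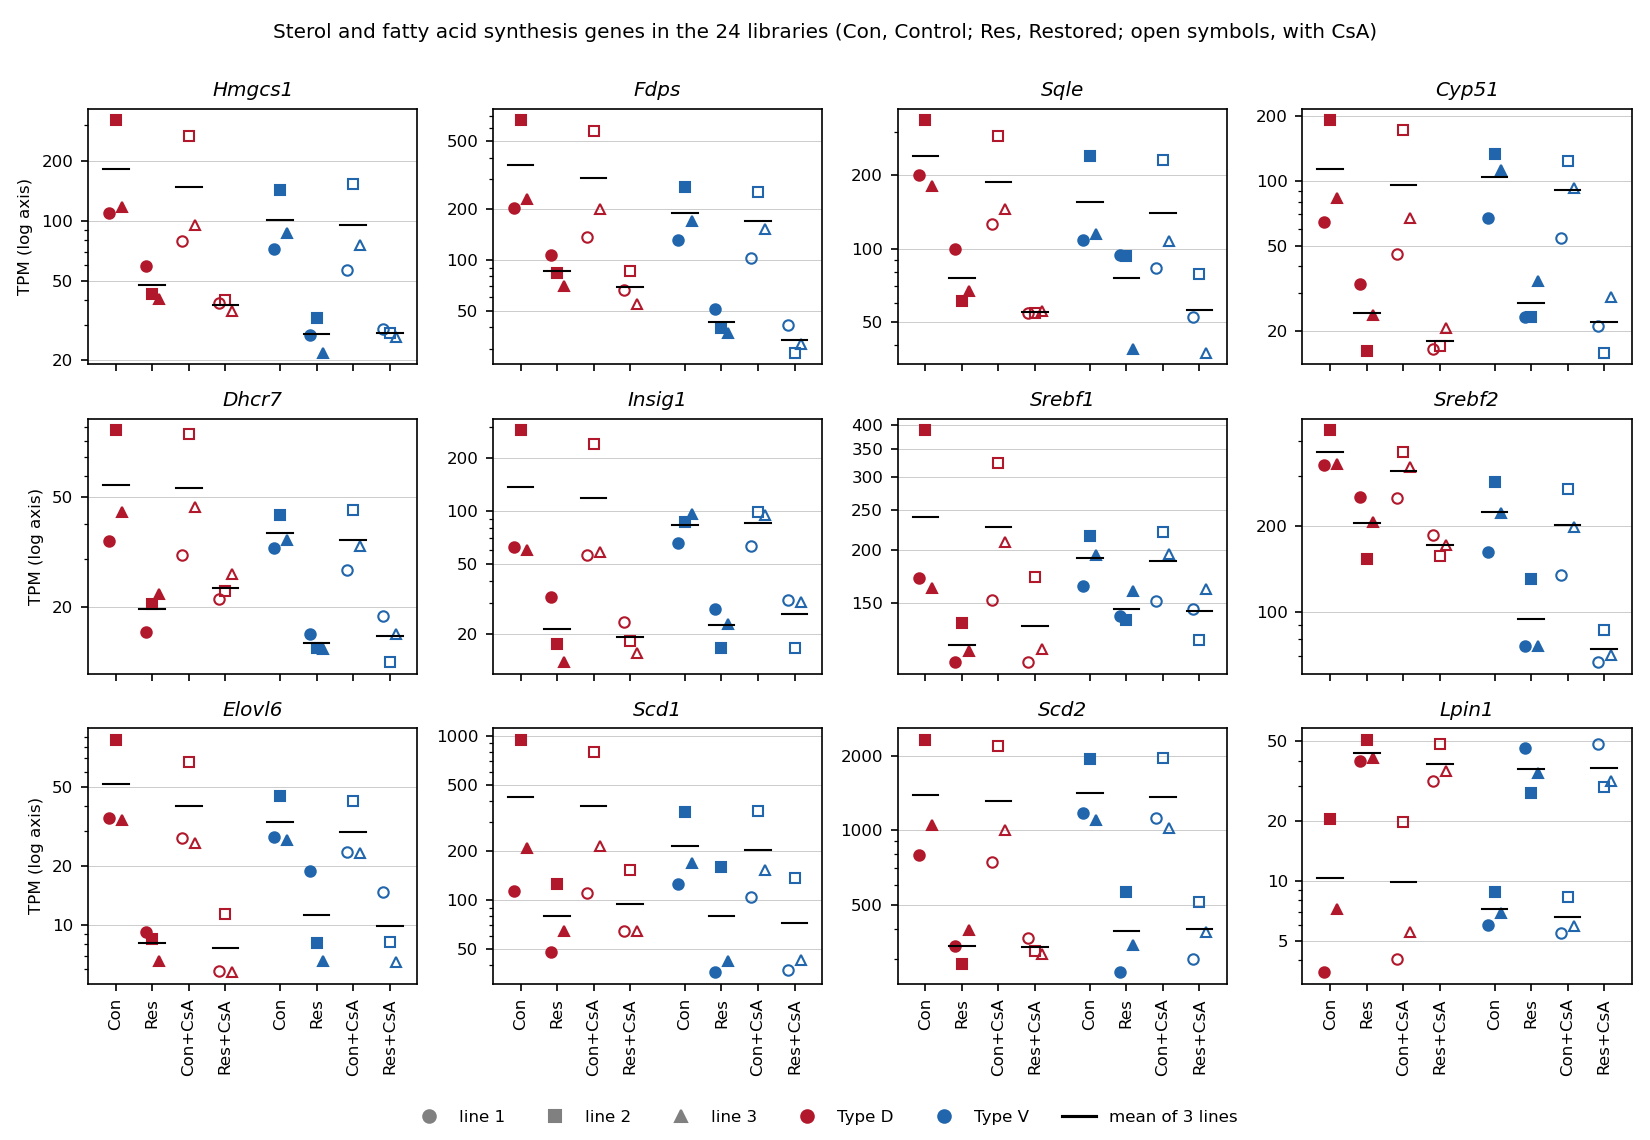
TPM (log axis) of 12 synthesis and regulator genes in all 24 libraries, by type and condition; symbols mark the cell line, open symbols the libraries with CsA, and bars the mean of 3 lines. Control line 2 (squares) of Type D is the highest of its group in all 12 panels, the restored lines lie closer together in most, and Lpin1 alone rises.

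The regulators did not move as one. Insig1, the sterol sensor that retains the SREBP complex, showed the largest fall of the 5 in both types. Its Type D values were 62.0, 288 and 60.1 TPM in Control and 32.6, 17.5 and 13.8 TPM in Restored, and its Type V values were 66.0, 86.4 and 96.2 TPM in Control and 27.7, 16.7 and 22.8 TPM in Restored. Restored and Control libraries were apart in both types, and the changes were -2.30 ± 0.54 (SE, adjusted p = 0.00766) and -1.85 ± 0.54 (SE, adjusted p = 0.0346). Srebf2, whose product mainly drives the sterol genes, had 330, 437 and 332 TPM in Control and 253, 153 and 208 TPM in Restored in Type D. The Type V libraries showed 163, 286 and 223 TPM in Control and 75.6, 131 and 75.7 TPM in Restored. It fell in Type V (-1.25 ± 0.27 SE, adjusted p = 0.00428), while the Type D change was -0.85 ± 0.27 (SE, adjusted p = 0.0405), under the fold threshold.

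Srebf1, whose product mainly drives the fatty acid genes, stood at 172, 388 and 163 TPM in Control and 108, 134 and 115 TPM in Restored in Type D, and 164, 217 and 195 TPM in Control and 139, 136 and 160 TPM in Restored in Type V. The groups did not overlap in either type, but the changes of -0.89 ± 0.29 (SE, adjusted p = 0.0494) and -0.40 ± 0.29 (SE, adjusted p = 0.488) were not called. Stard4, a sterol carrier, had 52.2, 97.7 and 65.3 TPM in Control and 41.8, 28.4 and 33.3 TPM in Restored in Type D, where it was called at the threshold (-1.0 ± 0.28 SE, adjusted p = 0.0240). The Type V lines had 50.1, 65.8 and 46.6 TPM in Control and 41.9, 29.8 and 25.5 TPM in Restored, and its change of -0.74 ± 0.28 (SE, adjusted p = 0.115) was not called. Scap, the escort of the SREBPs, had the opposite sign. It stood at 99.5, 85.4 and 74.0 TPM in Control and 121, 119 and 134 TPM in Restored in Type D, and at 83.2, 62.8 and 97.4 TPM in Control and 130, 89.1 and 171 TPM in Restored in Type V, higher after restoration in all 6 lines. The differences were 0.53 ± 0.24 (SE, adjusted p = 0.164) and 0.65 ± 0.24 (SE, adjusted p = 0.0972), and neither reached the fold threshold, with the block or without it.

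Of the 12 genes of fatty acid and lipid synthesis, 3 fell and 1 rose in Type D, and 2 fell and 1 rose in Type V. Elovl6, which lengthens palmitate, had 34.9, 86.9 and 34.3 TPM in Control and 9.26, 8.52 and 6.56 TPM in Restored in Type D, the largest fall of any of the 39 genes there (-2.41 ± 0.45 SE, adjusted p = 0.00109). Type V values were 28.1, 45.2 and 27.1 TPM in Control and 18.8, 8.16 and 6.62 TPM in Restored. Line 1 of Type V kept more of it than the other 5 lines, and the change was -1.59 ± 0.45 (SE, adjusted p = 0.0273). Scd2, a delta-9 desaturase, had 790, 2317 and 1052 TPM in Control and 339, 289 and 393 TPM in Restored in Type D. Its Type V values were 1178, 1940 and 1101 TPM in Control and 267, 562 and 344 TPM in Restored. The groups did not overlap in either type, and the changes were -1.88 ± 0.41 (SE, adjusted p = 0.00425) and -1.87 ± 0.41 (SE, adjusted p = 0.00555).

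Scd1, its close paralog, had 113, 947 and 208 TPM in Control and 48.4, 126 and 64.4 TPM in Restored in Type D, and 125, 344 and 168 TPM in Control and 36.4, 160 and 42.3 TPM in Restored in Type V. Every line fell, yet the lines differ so much in level that Restored and Control overlap, and the changes of -1.92 ± 0.81 (SE, adjusted p = 0.141) and -1.61 ± 0.81 (SE, adjusted p = 0.262) were called only with cell line as a block (adjusted p = 4.24e-05 and 0.000256). Reads of Scd1 and Scd2 may be split between the copies in ways the TPM table does not show. Fads1, the delta-5 desaturase, changed by -1.02 ± 0.34 and -1.04 ± 0.34 and was also called in both types with the block (adjusted p = 0.00231 and 0.00225). Fads2, the delta-6 desaturase, changed by -1.26 ± 0.49 and -0.69 ± 0.49 and was called with the block in Type D (adjusted p = 0.00146).

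Of the 6 enzymes that supply and join the first units, Acaca was called in Type D and none in Type V. Acaca, acetyl-CoA carboxylase, had 17.6, 18.4 and 19.7 TPM in Control and 9.04, 6.46 and 10.3 TPM in Restored in Type D and fell by 1.05 (adjusted p = 0.00425). Its levels in Type V were 22.6, 20.6 and 25.1 TPM in Control and 12, 11.5 and 20.7 TPM in Restored, a change of -0.64 ± 0.23 (SE, adjusted p = 0.0883). The 2 changes differed by -0.41 (95% confidence interval -1.09 to 0.26), not a called difference. Fasn, the fatty acid synthase itself, changed by -0.93 ± 0.29 (SE, adjusted p = 0.0429) and -0.55 ± 0.29 (SE, adjusted p = 0.286). Acly, which releases acetyl-CoA from citrate, changed by -0.64 ± 0.35 and -0.63 ± 0.35, and Aacs, which activates acetoacetate, by -0.78 ± 0.32 and -0.48 ± 0.32. Acss2, which activates acetate, had the smallest Type D change of the 12 genes. Its values were 8.72, 9.59 and 10.9 TPM in Control and 6.47, 5.54 and 13.9 TPM in Restored in Type D, and 4.80, 9.08 and 4.17 TPM in Control and 6.60, 6.59 and 9.44 TPM in Restored in Type V, with lines of both types moving either way (-0.25 ± 0.31 and 0.33 ± 0.31). Me1, the malic enzyme that supplies NADPH, had 319, 384 and 383 TPM in Control and 218, 220 and 317 TPM in Restored in Type D, and 92.0, 102 and 125 TPM in Control and 93.0, 104 and 93.3 TPM in Restored in Type V. Its changes were -0.54 ± 0.15 (SE, adjusted p = 0.0240) and -0.13 ± 0.15 (SE, adjusted p = 0.725).

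Lpin1 rose. It encodes lipin, a phosphatidate phosphatase of triglyceride and phospholipid synthesis that also acts in the nucleus, and it is known as a gene that p53 can induce. Its Type D values were 3.50, 20.5 and 7.23 TPM in Control and 39.8, 50.9 and 41.1 TPM in Restored. The Type V libraries showed 6.04, 8.76 and 6.95 TPM in Control and 46.1, 27.6 and 34.8 TPM in Restored. Every restored library lay above every control of either type, with changes of 2.27 ± 0.47 (SE, adjusted p = 0.00302) in Type D and 2.15 ± 0.47 (SE, adjusted p = 0.00577) in Type V. Line 2 of Type D, the line with the highest Control value, had the smallest rise of the 3 (1.27, against 3.18 in line 1 and 2.35 in line 3).

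The 4 efflux genes had positive changes in both types, and none was called. Abca1, which exports cholesterol to apolipoprotein, had 0.320, 3.19 and 0.245 TPM in Control and 0.519, 12.1 and 1.35 TPM in Restored in Type D. The Type V lines had 2.07, 2.94 and 15.1 TPM in Control and 6.88, 5.17 and 18.7 TPM in Restored. It was higher in all 6 restored lines, but the lines differed by more than the change, 0.92 (95% confidence interval -0.98 to 2.82) in Type D and 0.77 (95% confidence interval -1.13 to 2.67) in Type V. Abcg1, the second exporter, had 0.188, 3.03 and 0.0615 TPM in Control and 0.971, 33.3 and 0.192 TPM in Restored in Type D, and 0.00, 1.22 and 0.541 TPM in Control and 0.0478, 2.62 and 0.989 TPM in Restored in Type V, the value of 0.00 being listed as such. Most of its signal lay in line 2 of Type D, and the change of 1.33 ± 1.12 (SE, adjusted p = 0.529) there was called higher with the block (adjusted p = 0.0398). The Type V change was 0.38 ± 1.12 (SE, adjusted p = 0.926). Nr1h2, which encodes the LXR beta receptor, had 76.3, 80.5 and 90.7 TPM in Control and 107, 129 and 136 TPM in Restored in Type D, and 72.4, 70.8 and 76.2 TPM in Control and 96.2, 84.8 and 91.6 TPM in Restored in Type V. Restored lay above Control without overlap in both types, with changes of 0.58 ± 0.12 (SE, adjusted p = 0.00352) and 0.31 ± 0.12 (SE, adjusted p = 0.132). Mylip, an LXR target that marks lipoprotein receptors for breakdown, had 0.110, 0.322 and 0.0599 TPM in Control and 0.223, 0.268 and 0.150 TPM in Restored in Type D, and 1.92, 5.01 and 0.500 TPM in Control and 1.72, 6.24 and 0.661 TPM in Restored in Type V. Mylip did not move in a common direction (0.07 ± 0.57 and 0.10 ± 0.57).

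Genes of the same pathways outside the 39 were read against the same shares of all genes, 2.44% lower and 4.49% higher in Type D and 1.90% lower and 3.39% higher in Type V. Of 15 other sterol and isoprenoid genes, 3 fell in Type D: Tmem97, a sterol-binding membrane protein (-1.51 ± 0.24 SE, adjusted p = 0.000217), Pdss1, of coenzyme Q synthesis (-1.25 ± 0.29 SE, adjusted p = 0.00637), and Lbr, a sterol reductase of the nuclear membrane (-1.09 ± 0.26 SE, adjusted p = 0.00920). In Type V, 2 fell, Tmem97 (-1.65 ± 0.24 SE, adjusted p = 0.000129) and Pdss1 (-1.01 ± 0.29 SE, adjusted p = 0.0289). The median over these 15 genes was 0.20 in Type D and 0.12 in Type V. Of 15 other lipid genes, 1 rose in Type D, Lpin2 (1.45 ± 0.25 SE, adjusted p = 0.000649), and none was called in Type V, where 3 had an unadjusted p under 0.05. Of 8 other efflux and LXR genes, 7 were tested and 1 rose in both types, the phospholipid transfer protein Pltp (3.40 ± 0.90 SE, adjusted p = 0.0159, and 3.49 ± 0.90 SE, adjusted p = 0.0162). Along with the synthesis genes, a list of 20 cell cycle genes fell: 12 were called lower in each type, with medians of -2.96 in Type D and -1.97 in Type V. Its part in the fall of the synthesis genes was not tested.

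Some markers of other cell types also differed between Control and Restored. The summed TPM of 4 immune markers was 7.93 to 10 in Type D Control and 29.2 to 55.4 in Type D Restored, and 6.96 to 10.2 against 16.2 to 31.4 in Type V. Cd68, a lysosomal protein, carried this sum, since Cd3e was at 0 and Ptprc and Adgre1 stayed under 1 TPM in all 24 libraries. The sum of 5 fibroblast markers in Type V was 185 to 457 in Control and 27.4 to 184 in Restored, and Lum never reached 1 TPM. The sum of 4 epithelial markers was 6695 to 11816 and 4425 to 9101 in Type D, and 663 to 1577 and 490 to 839 in Type V. Of 3 hepatocyte markers, Alb and Ttr reached 1 TPM in 4 libraries each and Cyp3a11 was at 0 throughout, with sums of 0.174 to 23.5 in Type D Control and 0.00 in Type D Restored, and of 0.155 to 19.9 and 0.136 to 0.349 in Type V. Of 3 adipocyte markers, Adipoq and Plin1 stayed under 1 TPM in all 24 libraries, and the sum, carried by Cidec, was 11.3 to 22.9 in Type D Control and 5.98 to 14.3 in Type D Restored, and under 1 in Type V. The part of these markers in the restoration results was not tested.

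Within each type the size of the fall varied between the lines. The median change over the 18 mevalonate and sterol enzymes was -0.82, -2.31 and -0.96 in Type D lines 1, 2 and 3, and -0.79, -1.56 and -0.97 in Type V lines 1, 2 and 3. All 18 enzymes fell below their own control in Type D lines 1, 2 and 3, and in Type V it was 16, 18 and 17 of 18. The median over all genes tested stayed between 0.01 and 0.10 in the 6 lines. In each type, line 2 had the deepest fall and also the highest starting level.

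**Figure D3:**
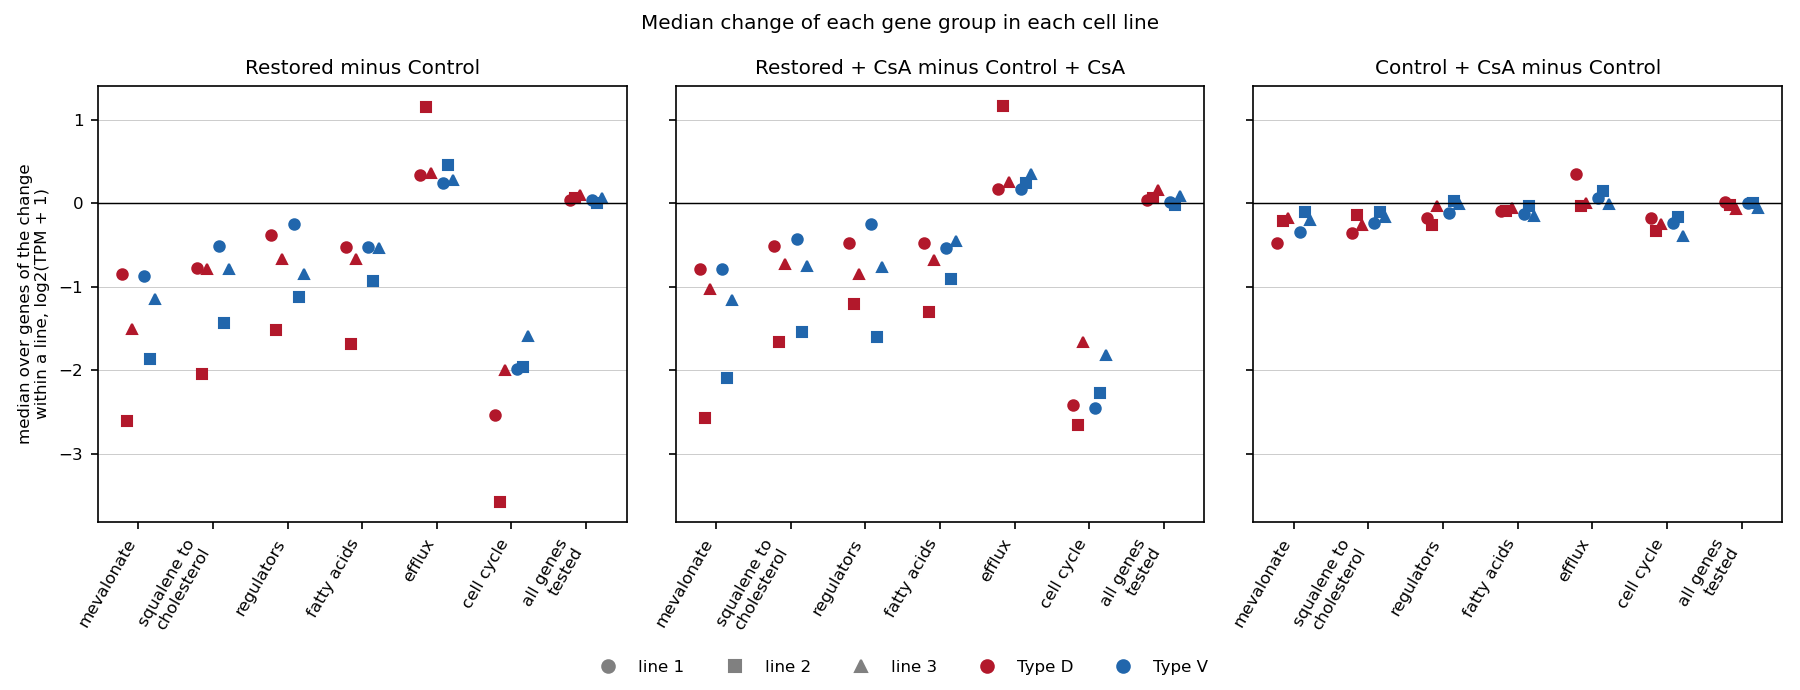
Median change within each cell line (y axis, log2(TPM + 1) scale) over the genes of each role group, a list of 20 cell cycle genes and all 14104 genes tested, for restoration without CsA, restoration with CsA, and CsA alone; symbols mark the line and colors the type. Line 2 (squares) shows the deepest median of its type in the 4 synthesis and regulator groups on restoration, and with CsA alone the medians of every group stay within 0.47 of 0.

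Summed over the 18 enzymes, Type D Control lines 1, 2 and 3 held 1551, 3291 and 1519 TPM, and the restored lines 1021, 701 and 686 TPM. In Type V the Control sums were 1153, 1802 and 1319 TPM and the Restored sums 684, 622 and 614 TPM. The range between lines was thus narrower after restoration in both types. In Type D this came from line 2, while lines 1 and 3 were close in Control and further apart in Restored. In Control, line 2 of Type D had the highest TPM of its type for all 18 enzymes and for 35 of the 39 genes, while it was highest for 44.5% of all genes tested. Line 2 of Type V was highest for 16 of the 18 and 28 of the 39, against 29.4% of all genes. After restoration those counts were 2 of 18 in Type D and 4 of 18 in Type V. The SD of log2(TPM + 1) between the 3 Type D lines had a median over the 39 genes of 0.57 in Control and 0.29 in Restored, and it was smaller in Restored for 28 genes (71.8%), against 44.1% of all genes tested. In Type V the medians were 0.38 and 0.36, with a smaller SD for 19 genes (48.7%, against 43.0% of all genes), and for 9 of the 11 sterol enzymes. The Control value enters both the starting level and the change, and the narrowing was not tested.

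**Figure D4:**
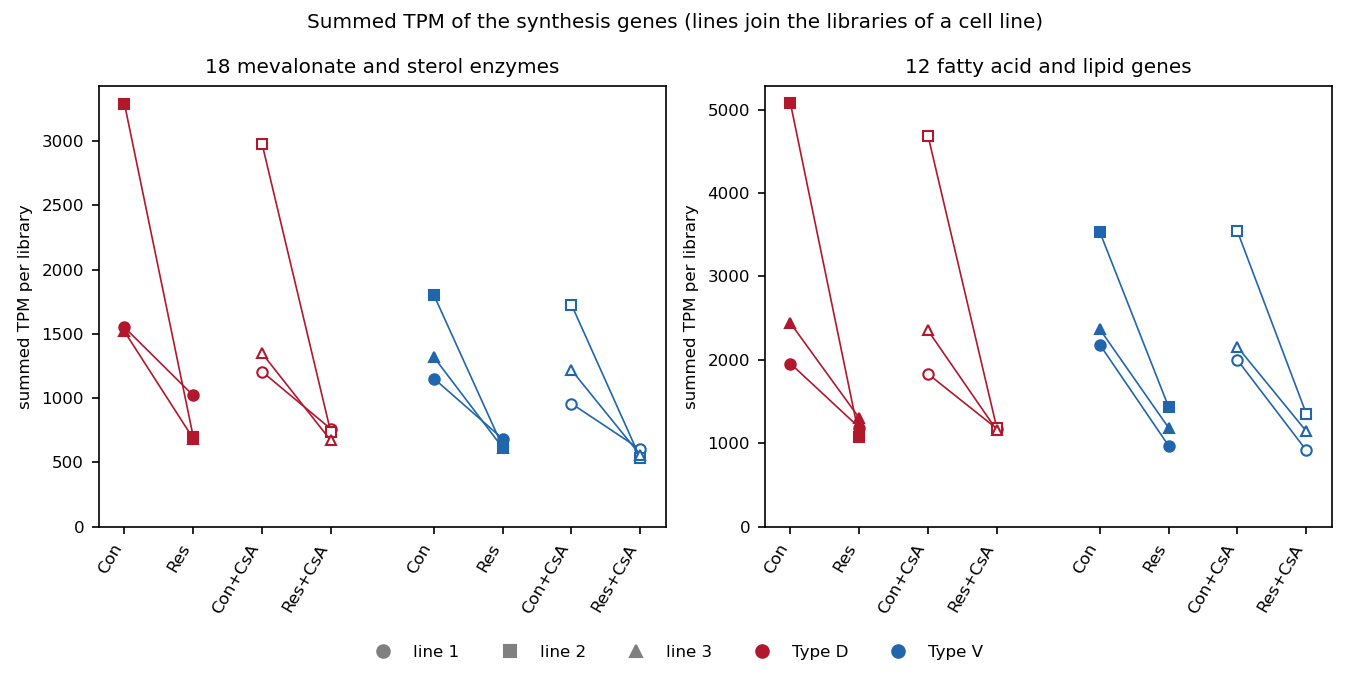
Summed TPM per library (y axis, from 0) of the 18 mevalonate and sterol enzymes (left) and of the 12 fatty acid and lipid genes (right), with a line joining the Control and Restored libraries of each cell line, without CsA (filled) and with CsA (open). Control sums of the enzymes run from 1153 to 3291 TPM without CsA and Restored sums from 614 to 1021 TPM.

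The number of calls in Type D rested on lines 2 and 3: 5 of the 39 genes were called without line 2 and 8 without line 3, against 17 with all lines, 4 when the compared groups were fitted alone, and 23 with cell line as a block. In Type V, 5, 3 and 1 genes were called without line 1, 2 or 3, against 12, and 19 with cell line as a block.

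Whether the types differ in this response was tested directly. No gene of the 39 was called for the difference between the Type D and the Type V change in limma, against 0.0213% of all genes called higher and 0.00709% called lower, 0 had an unadjusted p under 0.05, and with the block 0 were called and 3 had an unadjusted p under 0.05. The differences, Type D minus Type V, ranged from -0.82 for Elovl6 to 0.95 for Abcg1, with a median of -0.18. For Hmgcs1 it was 0.07 (95% confidence interval -1.22 to 1.36), for Insig1 -0.45 (95% confidence interval -2.06 to 1.16), for Srebf1 -0.49 (95% confidence interval -1.36 to 0.37) and for Srebf2 0.40 (95% confidence interval -0.39 to 1.19). For Scd1 it was -0.32 (95% confidence interval -2.73 to 2.10), for Scd2 -0.01 (95% confidence interval -1.22 to 1.20) and for Lpin1 0.12 (95% confidence interval -1.29 to 1.52). For 36 of the 39 genes the interval reached a difference of 1 log2 or more in 1 direction, so equal responses were not shown. Ebp came closest with the block, where its difference of -0.61 had an adjusted p of 0.0293, under the fold threshold.

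Few of the 39 genes were called different in level between the types, in counts near the shares of all genes given beside them. In Control, 1 gene was called higher in Type D, against 4.42% of all genes called higher, and 0 were called lower, against 4.41%. This gene was Me1, at 319, 384 and 383 TPM in Type D and 92.0, 102 and 125 TPM in Type V. The lowest Type D line held more than the highest Type V line, and the difference was 1.76 ± 0.15 (SE, adjusted p = 2.83e-07). The fit counts the 4 libraries of each line as independent, although their deviations from group means correlated (r of 0.599 to 0.929). The p-values between types, in Control and in Restored, can therefore be too small. Me1 was also called in Control in a fit of the compared groups alone, where each line gives 1 library. Of the 39 genes, 32 were higher in Type D by estimate, with a median difference of 0.24, while the median over all genes was -0.12 (-0.02 with median-ratio scaling). Line 2 of Type D, the highest Control line of its type for 35 of the 39 genes, enters these estimates. How many would be higher without that line was not read. Srebf2 was higher by 0.73 ± 0.27 (SE, adjusted p = 0.0771) and Msmo1 by 0.73 ± 0.28 (SE, adjusted p = 0.0998), short of a call, and Abca1 and Mylip had estimates of -1.61 ± 0.91 and -1.36 ± 0.57, lower in Type D. Without line 2 of Type V, Fdft1 and Tm7sf2 were called too, and without line 3 of Type V Mylip was.

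After restoration, 3 genes were higher in Type D, against 4.45% of all genes called higher, and 0 were called lower, against 4.99%. Srebf2 stood at 253, 153 and 208 TPM in Type D and 75.6, 131 and 75.7 TPM in Type V (1.13 ± 0.27 SE, adjusted p = 0.00758). Msmo1 stood at 301, 140 and 119 TPM and 84.4, 74.2 and 75.9 TPM (1.12 ± 0.28 SE, adjusted p = 0.0122). Me1 stood at 218, 220 and 317 TPM and 93.0, 104 and 93.3 TPM (1.35 ± 0.15 SE, adjusted p = 7.60e-06). None of the 3 genes overlapped between the types, and the share of all genes so separated was not read. In Restored, Hmgcs1, Fdps, Fdft1, Dhcr7 and Nr1h2 also lay above in Type D without overlap, and Ebp, Srebf1, Acaca and Mylip lay below. Me1 was the 1 gene called without line 1 of Type D or in a fit of the compared groups alone. Srebf2 was also lost without line 3 of Type D, and without line 3 of Type V both Srebf2 and Msmo1 were lost and Mylip was called. Markers of other cell states differed between the types as well. The summed TPM of 4 epithelial markers was 6695 to 11816 in Type D Control and 663 to 1577 in Type V Control, and that of 5 fibroblast markers was 0.595 to 1.31 and 185 to 457. Their part in these differences was not tested.

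In the paper, CsA protected Type D cells from death after p53 restoration. Guide RNAs against cyclophilins A and E were enriched among surviving cells there, and those against cyclophilin D were not. The paper also reports that CsA removed the enrichment of a p53 pathway gene set in restored Type D cells, and not in Type V. Such a result over a gene set is of another kind than the calls of single genes used here. The next question was whether CsA changes the lipid genes. With CsA alone, none of the 39 genes was called by limma in Type D or Type V, as was the case for all genes tested (0.00% called in either direction), and 0 had an unadjusted p under 0.05 in either type, without the block or with it. All 7 mevalonate enzymes had small negative estimates in both types, with medians of -0.30 in Type D and -0.19 in Type V. All 20 cell cycle genes also had negative estimates, with medians of -0.27 and -0.28, and over all genes tested the medians were -0.03 and -0.01. Among restored cells, 0 of the 39 were called for CsA in either type, against 0.0142% of all genes called lower in Type D and 0.00% in the other direction and in Type V, and 0 had an unadjusted p under 0.05, with 3 in Type D and 0 in Type V under the block. The medians of the 39 were -0.07 in Type D and -0.09 in Type V.

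Averaged over both types, with and without restoration, the CsA differences ran from -0.34 for Sqle to 0.21 for Abca1, none called (0.00% of all genes), 0 with an unadjusted p under 0.05 and 2 with the block. The difference was -0.19 (95% confidence interval -0.65 to 0.27) for Hmgcs1, -0.29 (95% confidence interval -0.78 to 0.20) for Fdps and -0.34 (95% confidence interval -0.80 to 0.11) for Sqle. It was 0.00 (95% confidence interval -0.57 to 0.57) for Insig1, 0.01 (95% confidence interval -0.29 to 0.32) for Srebf1 and -0.23 (95% confidence interval -0.51 to 0.05) for Srebf2. For Scd2 it was -0.02 (95% confidence interval -0.45 to 0.41), and for Lpin1 -0.09 (95% confidence interval -0.59 to 0.40). An averaged CsA difference of 1 log2 lay outside the 95% interval for each of these 8 genes. These intervals cover the average only, and a larger CsA difference within a single type or condition is not excluded by them. The intervals of the other genes, among them Scd1 and the efflux genes, are not given here, so such a difference is not excluded for them.

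The restoration response was then read in the libraries with CsA, which are separate libraries of the same lines. In Type D, 10 of the 39 genes fell and 1 rose, against 1.88% of all genes called lower and 3.53% called higher. In Type V, 10 fell and 1 rose, against 1.77% and 2.84%. The medians of the 39 were -0.88 and -0.89. All 10 genes lower with CsA in Type D were among the 16 lower without it (62.5% of those), and 9 of the 10 in Type V (90%) were among the 11 (81.8%), the other being Fads1. The 7 genes Hmgcs1, Mvd, Fdps, Cyp51, Dhcr7, Elovl6 and Scd2 were called lower in all 4 restoration comparisons, and Lpin1 was called higher in all 4.

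With CsA, Hmgcs1 stood at 78.6, 267 and 94.9 TPM in Control + CsA and 38.5, 39.8 and 35.1 TPM in Restored + CsA in the Type D lines. In the Type V lines it stood at 56.6, 152 and 75.9 TPM in Control + CsA and 28.7, 27.3 and 26.0 TPM in Restored + CsA. The 6 restored libraries held between 26.0 and 39.8 TPM, a narrower range than the controls, and the changes were -1.71 ± 0.43 (SE, adjusted p = 0.0163) and -1.64 ± 0.43 (SE, adjusted p = 0.0239). Fdps had 136, 571 and 200 TPM in Control + CsA and 66.1, 86.0 and 55.2 TPM in Restored + CsA in Type D, and 103, 251 and 152 TPM in Control + CsA and 41.5, 28.4 and 31.8 TPM in Restored + CsA in Type V (-1.86 ± 0.47 SE, adjusted p = 0.0157, and -2.20 ± 0.47 SE, adjusted p = 0.00472). Mvd had 44.6, 120 and 65.9 TPM in Control + CsA and 28.7, 16.2 and 27.2 TPM in Restored + CsA in Type D, and 40.8, 49.7 and 36.5 TPM in Control + CsA and 23.4, 10.9 and 14.5 TPM in Restored + CsA in Type V (-1.56 ± 0.36 SE, adjusted p = 0.00869, and -1.38 ± 0.36 SE, adjusted p = 0.0217). All 6 controls of these genes lay above the restored libraries of their type. Idi1 had 11.1, 34.2 and 10.5 TPM in Control + CsA and 5.27, 4.94 and 5.0 TPM in Restored + CsA in Type D, where it was called (-1.49 ± 0.41 SE, adjusted p = 0.0265), and 7.18, 14.7 and 9.94 TPM in Control + CsA and 3.96, 2.57 and 3.90 TPM in Restored + CsA in Type V, where its change was -1.34 ± 0.41 (SE, adjusted p = 0.0513) and was called with the block (adjusted p = 0.0115).

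Of the sterol enzymes, Cyp51 had 45.5, 173 and 67.2 TPM in Control + CsA and 16.6, 17 and 20.8 TPM in Restored + CsA in Type D, and 54.5, 124 and 92.4 TPM in Control + CsA and 21.2, 15.9 and 28.9 TPM in Restored + CsA in Type V, with changes of -2.11 ± 0.45 (SE, adjusted p = 0.00465) and -1.95 ± 0.45 (SE, adjusted p = 0.00918). Dhcr7 had 30.9, 85.1 and 46.0 TPM in Control + CsA and 21.4, 22.9 and 26.3 TPM in Restored + CsA in Type D, and 27.2, 45.0 and 33.2 TPM in Control + CsA and 18.5, 12.6 and 16 TPM in Restored + CsA in Type V (-1.05 ± 0.32 SE, adjusted p = 0.0455, and -1.10 ± 0.32 SE, adjusted p = 0.0385). Sqle had 126, 291 and 146 TPM in Control + CsA and 54.5, 54.5 and 55.3 TPM in Restored + CsA in Type D, where the 3 restored lines were almost equal, and the change was -1.66 ± 0.43 (SE, adjusted p = 0.0195). Type V values were 83.2, 230 and 107 TPM in Control + CsA and 52.4, 78.4 and 37.4 TPM in Restored + CsA, a change of -1.23 ± 0.43 (SE, adjusted p = 0.0946) that was called with the block (adjusted p = 0.00488). Msmo1 had 145, 203 and 178 TPM in Control + CsA and 68.5, 68.6 and 61.5 TPM in Restored + CsA in Type V (-1.38 ± 0.28 SE, adjusted p = 0.00370) and 255, 395 and 200 TPM in Control + CsA and 188, 126 and 127 TPM in Restored + CsA in Type D, where its change of -0.91 ± 0.28 (SE, adjusted p = 0.0533) was not called.

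Insig1 again had the largest fall of the 5 regulators in both types. It stood at 56.1, 241 and 58.4 TPM in Control + CsA and 23.4, 18.3 and 15.6 TPM in Restored + CsA in Type D (-2.24 ± 0.54 SE, adjusted p = 0.0123). Its levels in Type V were 63.4, 98.6 and 95.4 TPM in Control + CsA and 31.3, 16.7 and 30.5 TPM in Restored + CsA, a change of -1.70 ± 0.54 (SE, adjusted p = 0.0640) that the block turned into a call (adjusted p = 0.00916). In Type D, line 2 went from by far the highest Control + CsA level of Insig1 to the middle of the 3 restored lines. Srebf2 stood at 252, 365 and 325 TPM in Control + CsA and 186, 157 and 172 TPM in Restored + CsA in Type D (-0.85 ± 0.27 SE, adjusted p = 0.0521, not called) and at 135, 270 and 199 TPM in Control + CsA and 66.4, 86.1 and 70.3 TPM in Restored + CsA in Type V (-1.38 ± 0.27 SE, adjusted p = 0.00206). Srebf1 stood at 152, 323 and 210 TPM in Control + CsA and 108, 173 and 116 TPM in Restored + CsA in Type D, and 151, 221 and 196 TPM in Control + CsA and 145, 122 and 162 TPM in Restored + CsA in Type V, and was not called (-0.74 ± 0.29 and -0.40 ± 0.29).

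In the fatty acid group, Elovl6 had 27.8, 67.0 and 26.1 TPM in Control + CsA and 5.87, 11.4 and 5.79 TPM in Restored + CsA in Type D, and 23.4, 42.4 and 23.2 TPM in Control + CsA and 14.8, 8.24 and 6.54 TPM in Restored + CsA in Type V (-2.17 ± 0.45 SE, adjusted p = 0.00333, and -1.51 ± 0.45 SE, adjusted p = 0.0440). Scd2 had 741, 2185 and 999 TPM in Control + CsA and 365, 325 and 316 TPM in Restored + CsA in Type D, and 1118, 1954 and 1018 TPM in Control + CsA and 300, 511 and 386 TPM in Restored + CsA in Type V (-1.81 ± 0.41 SE, adjusted p = 0.00714, and -1.74 ± 0.41 SE, adjusted p = 0.0101). Both desaturase copies and the elongase fell in all 6 lines. Scd1 had 111, 794 and 212 TPM in Control + CsA and 65.0, 153 and 64.5 TPM in Restored + CsA in Type D, and 105, 350 and 152 TPM in Control + CsA and 37.6, 137 and 43.3 TPM in Restored + CsA in Type V, and was called only with the block (adjusted p = 0.000252 and 0.000461). Fads1 had 145, 255 and 183 TPM in Control + CsA and 50.6, 119 and 82.9 TPM in Restored + CsA in Type V (-1.24 ± 0.34 SE, adjusted p = 0.0273) and 178, 343 and 187 TPM in Control + CsA and 119, 91.4 and 112 TPM in Restored + CsA in Type D (-1.07 ± 0.34 SE, adjusted p = 0.0550, and 0.00189 with the block). Lpin1 rose from 4.07, 19.8 and 5.57 to 31.6, 48.6 and 35.5 TPM in Type D (2.14 ± 0.47 SE, adjusted p = 0.00627), and from 5.48, 8.35 and 5.95 to 48.7, 29.7 and 31.8 TPM in Type V (2.30 ± 0.47 SE, adjusted p = 0.00370).

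The efflux genes were again not called without the block. Abca1 had 0.715, 3.21 and 0.281 TPM in Control + CsA and 2.40, 14.3 and 1.66 TPM in Restored + CsA in Type D, and 2.28, 3.64 and 14.8 TPM in Control + CsA and 6.72, 5.10 and 22.3 TPM in Restored + CsA in Type V, and was called higher in Type D with the block (adjusted p = 0.00136). Abcg1 had 0.479, 2.16 and 0.0260 TPM in Control + CsA and 0.534, 25.9 and 0.193 TPM in Restored + CsA in Type D, and 0.0194, 1.84 and 0.425 TPM in Control + CsA and 0.00, 2.19 and 0.897 TPM in Restored + CsA in Type V, most of it in line 2 of Type D. Levels of both exporters differed widely between lines, before and after restoration. Nr1h2 had 82.5, 76.7 and 98.3 TPM in Control + CsA and 101, 108 and 122 TPM in Restored + CsA in Type D, and 84.5, 74.3 and 83.6 TPM in Control + CsA and 103, 85.9 and 93.3 TPM in Restored + CsA in Type V, with changes of 0.36 ± 0.12 and 0.21 ± 0.12. Mylip had 0.526, 0.575 and 0.0508 TPM in Control + CsA and 0.0905, 0.148 and 0.00 TPM in Restored + CsA in Type D, and 1.97, 4.96 and 0.510 TPM in Control + CsA and 2.08, 6.31 and 0.853 TPM in Restored + CsA in Type V, without a call.

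With CsA the block raised the calls from 11 to 19 in each type. Besides the genes named with their block values, it added Acat2, Pmvk, Lss, Nsdhl and Fads2 in Type D, and Acat2, Mvk, Pmvk and Fads2 in Type V, all lower. Without line 2 or line 3 of Type D there were 5 and 2 calls in Type D; in Type V there were 6, 3 and 1 calls without its lines 1, 2 or 3, and 6 without line 3 of Type D. The difference between the restoration change with and without CsA was not called for any of the 39 genes in either type, nor for any other gene tested (0.00%), 0 had an unadjusted p under 0.05, and 2 in Type D and 0 in Type V did with the block. It ranged from -0.40 to 0.50 in Type D and from -0.32 to 0.63 in Type V. For Hmgcs1 it was 0.03 (95% confidence interval -1.25 to 1.32) in Type D and 0.18 (95% confidence interval -1.11 to 1.47) in Type V, and for Lpin1 -0.13 (95% confidence interval -1.54 to 1.27) and 0.14 (95% confidence interval -1.26 to 1.55).

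Most mevalonate and sterol enzymes moved together across libraries, and some other genes of the 39 did not follow them. Pearson's r of log2(TPM + 1) with Hmgcs1 over the 24 libraries, given as a description since libraries share lines and treatments, was highest over 14103 genes for Fdps (0.98) and Idi1 (0.96). Next came Rdh11 (0.95), a retinol dehydrogenase, and Dhcr7 and Fdft1 (both 0.95). They were followed by the acyl-CoA binding protein Dbi (0.94), the splicing protein gene Snrpe (0.94), Stard4 (0.93) and Sqle (0.93). Among the 39, r was 0.90 for Insig1, 0.88 for Srebf2 and 0.81 for Srebf1. Of the sterol enzymes, Tm7sf2 (0.52) and Ebp (0.71) had the lowest r. In the first steps of fatty acid synthesis it was 0.80 for Aacs, 0.72 for Fasn, 0.49 for Acly and 0.43 for Acaca. For Me1 it was 0.48 and for Acss2 0.19. The efflux genes Abca1, Abcg1 and Mylip had r of -0.41, -0.01 and -0.11. Scap (-0.75), Lpin1 (-0.58) and Nr1h2 (-0.55) ran opposite to Hmgcs1.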

How the data were processed

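RNA-seq data were from 24 libraries (TruSeq stranded mRNA). The authors deposited 1 table of TPM values (transcript abundance corrected for length and scaled to sum to 1000000 in each library), which was used as deposited. TPM keeps no counts, so depth is unknown and count tests were not used. The study's methods and notes name kallisto or HISAT2, and mm10 or GRCm39, and which of them lie behind the table is not given in the sources used here. Groups came from the GEO labels.

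The members and lists were chosen with earlier results of these data known. Values were tested as log2(TPM + 1), a scale that understates changes of low genes, by limma 3.58.1 under R 4.3.3, with 1 coefficient per group and moderated variances with an intensity trend. Genes were kept where 3 or more libraries reached a TPM of 1. Tests were two-sided, with Benjamini-Hochberg adjustment over the 14104 genes within each of 14 comparisons. Genes that moved by 1 log2 or more with an adjusted p below 0.05 are called. No test was made over the list. The script was tested on simulated data.

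Libraries of a line are paired, since they come from the same cells. After removal of group means their deviations correlated with r of 0.599 to 0.929 (36 pairs), against -0.675 to 0.0438 for different lines of a type (72 pairs). The values given have no block, since the study's methods name none, and cell line as a block was an alternative. Others were quantile normalization, median-ratio scaling, a TPM minimum of 5, no filter, a pseudocount of 0.1, the compared groups alone, and each line left out.

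Values per library are given for called genes (at most 6 per role group and comparison), for the gene of each group with the smallest change, and for Srebf1, Srebf2, Insig1, Scd1, Scd2, Lpin1 and the efflux genes. From the other lists at most 4 called genes were named, and the 10 genes most like Hmgcs1 were read, of which 1 is not reported here. Promoters are from RefSeq (GRCm38.p6) and were used for sequence only. Figures used matplotlib 3.10.9.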

Additional observations from a re-analysis of the deposited data

How the results depend on the processing

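No result changed direction under any alternative tried. The number of the 39 genes called on restoration in Type D was 17, and it was 4 when the compared groups were fitted alone, 23 with cell line as a replicate block, and 5 to 20 with 1 line left out. In Type V it was 12, and it was 7 with the compared groups alone, 19 with that block, and 1 to 17 with 1 line left out. Under CsA the counts of 11 became 2 and 3 in the compared groups alone, in Type D and Type V, 19 and 19 with the replicate block, and 2 to 12 and 1 to 15 with 1 line left out. Between types in Control the count of 1 became 2 with a pseudocount of 0.1, the added gene being Mylip, lower in Type D, and 1 to 3 with 1 line left out. Between types in Restored the count of 3 became 1 in the compared groups alone and 1 to 3 with 1 line left out. The mean over lines of the median change of the 4 efflux genes in Type V rose from 0.32 to 0.46 with a pseudocount of 0.1. Why the counts of called genes changed between the fits was not tested. Among the 39 genes the block changed no call beyond those given with their genes, and it cannot be fitted to the comparisons between types, where each line gives 1 library. The 8 counts that were 0 for CsA and for differences between responses remained 0 under all alternatives. Fold changes of low genes such as Abca1, Abcg1 and Mylip depend on the pseudocount.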

Other observations

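A few genes next to the described ones in lipid metabolism were called different between the types, at most 1 per list and direction. Over all genes, 4.42% were called higher in Type D and 4.41% lower in Control, and 4.45% and 4.99% in Restored. Of the 15 other sterol genes, Soat1, which esterifies cholesterol, was higher in Type D in Control (1.23 ± 0.40 SE, adjusted p = 0.0498) and in Restored (2.06 ± 0.40 SE, adjusted p = 0.00194), and the lipoprotein receptor gene Scarb1 was lower in Control (-1.30 ± 0.28 SE, adjusted p = 0.00383). Of the 15 other lipid genes, Dgat2, which completes triglycerides, was higher in Type D in Control (2.58 ± 0.83 SE, adjusted p = 0.0459), and Lpin3 was higher in Restored (1.88 ± 0.48 SE, adjusted p = 0.0121). Smpdl3a, an LXR target, was higher in both (2.95 ± 0.73 SE, adjusted p = 0.0107, and 2.53 ± 0.73 SE, adjusted p = 0.0248). These are limma tests adjusted over all genes, from 3 lines per type. They count the correlated libraries of a line as independent, so their p-values can be too small.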
